A study of Mus musculus with 9 samples.

Results

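The 2 arrays of the transgenic mouse line L84 were compared with the 2 arrays of the transgenic line L60, which makes 4 of the 9 arrays of the series. The members were chosen by their titles alone. The 3 arrays of control mice (LC) served to place each difference and, like the 2 arrays of the remaining transgenic line (LA), entered the estimate of spread behind every SE and p. The study, whose title concerns constitutively active Akt, ectodermal defects and impaired bone morphogenetic protein (BMP) signalling, measured total RNA of whole skin on Affymetrix arrays. All mice were of a mixed C57BL/DBA/FVB strain, and skin (30 mg) was taken 30 days after birth. Every array received 1 pool of RNA from mice of 1 genotype. The labels give neither the number of mice in a pool, nor the body site, nor the promoter that drives the transgene, nor how L60, L84 and LA differ from each other. The p-values therefore measure the spread between these pools alone.

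Akt is a kinase that carries signals from growth factor receptors through phosphatidylinositol 3-kinase (PI3K), and among its substrates are the FOXO transcription factors. BMPs are secreted ligands that act through receptor kinases and SMAD proteins on genes such as the Id family and Msx2. In the hair follicle, BMP signals to the matrix cells are needed for them to leave the cell cycle and to form the inner root sheath and the hair shaft, through regulators such as Msx2, Foxn1 and Hoxc13. Keratins of the inner root sheath appear low in the growing follicle, shaft keratins appear in sequence from the matrix upward, and keratin-associated proteins fill the upper cortex and cuticle last.

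The stretches upstream of 4 type I keratin genes that fell in L84 are shown because they stand for both kinds of hair keratin in the comparison, with Krt25 and Krt27 from the inner root sheath and Krt31 and Krt34 from the shaft. The 150 bases before each transcription start, all on the minus strand of chromosome 11, were taken from RefSeq promoters (GRCm38.p6) and lie at chr11:99322952-99323101 for Krt25, chr11:99351119-99351268 for Krt27, chr11:100050552-100050701 for Krt31 and chr11:100041555-100041704 for Krt34. Capitals mark TATAAA, the TATA box sequence, and CTTTGAA, a word bound by LEF and TCF factors of Wnt signalling.
Krt25: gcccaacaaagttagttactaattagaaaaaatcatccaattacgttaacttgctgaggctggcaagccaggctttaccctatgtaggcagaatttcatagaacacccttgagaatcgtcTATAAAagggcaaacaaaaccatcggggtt
Krt27: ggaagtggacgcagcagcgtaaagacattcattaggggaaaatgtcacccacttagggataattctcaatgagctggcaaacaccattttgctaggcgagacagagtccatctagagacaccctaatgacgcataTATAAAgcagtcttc
Krt31: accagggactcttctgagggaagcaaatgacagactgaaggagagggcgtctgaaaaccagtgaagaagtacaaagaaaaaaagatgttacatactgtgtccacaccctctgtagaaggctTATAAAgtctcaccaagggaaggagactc
Krt34: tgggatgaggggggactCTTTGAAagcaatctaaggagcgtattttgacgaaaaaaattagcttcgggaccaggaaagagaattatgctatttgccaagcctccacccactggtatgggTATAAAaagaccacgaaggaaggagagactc
TATAAA began 30, 15, 29 and 31 bases before the start of Krt25, Krt27, Krt31 and Krt34. Over 250 upstream bases and both strands it was found in 5 of the 6 called hair genes in the promoter table (Krt25, Krt27, Krt31, Krt34 and S100a3), and in 12.4% of all 32851 promoters. CTTTGAA was found in Krt31, Krt34 and Tchh, and in 4.46% of all promoters. In all, 12 words were searched, and the 2 marked ones were chosen after the counts were seen. The others follow with their count in the same 6 genes and their share of all promoters. They were CTTTGA, which lies within CTTTGAA (4 of 6, 13.8%), CTTTGTT (1, 5.03%), TTTATTG (1, 4.2%), TTTATGA (0, 3.35%) and TTTTATGG (2, 0.776%). Also searched were AACCACA (0, 4.4%), CCCTCCC (2, 19.7%), GACGC (3, 22.6%), GGGTGTG (1, 6.93%) and the CArG box of serum response factor (0, 0.0457%). A match describes the letters in this window and shows no binding.

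The deposited value of a probe set is a score with mean 0 and SD 1 over the 9 arrays, and a gene's score is the mean of the probe sets that name that gene alone. Differences are given on that scale, in SDs, and carry no expression level and no fold change. A gene whose arrays fall into 2 tight sets scores near 1 and near -1 whatever the size of its change. The SD of the scores over genes ran from 0.675 to 1.2 on single arrays and was 1.13 on L84 1. Probe sets for 18S ribosomal RNA scored 2.09 on L60 1 and 0.339 on L84 1, against -0.642 on L60 2 and -0.528 on L84 2. The correlation between both L84 arrays over all genes was -0.296 and that between both L60 arrays was -0.0228. Xist, the RNA that silences an X chromosome in females, scored -0.9 and 1.48 in L60 and -1.06 and 0.904 in L84, so each line held 1 low and 1 high array. The array numbered 1 was also the low one in LC (LC 1, -0.915) and LA (LA 1, -0.822). The part of these differences between pools in the results was not tested.

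Of 12393 genes, 14 were called between the lines (0.113%) at an adjusted p under 0.05, by a limma fit of the 4 group means without variance moderation and with Benjamini-Hochberg adjustment over all genes. In L84, 12 genes were lower (0.0968%) and 2 were higher (0.0161%). These calls depended on the fit. None was made with variance moderation (smallest adjusted p = 0.716), with replicate number as a block (smallest adjusted p = 0.0516), or with every array's median set to 0 and SD to 1 (smallest adjusted p = 0.165), all by limma. With the medians alone set to 0 the split was 5 lower and 2 higher. Leaving out 1 array gave 8 calls without LC 1, 3 without LC 2, 4 without LC 3, 9 without L60 1, 5 without L60 2, 9 without L84 1, 15 without L84 2 and 7 without LA 1 or LA 2. Of the 14 genes, these fits kept 6, 3, 4, 4, 2, 4, 4, 5 and 5. Krt25 and S100a3 were called in 13 of 18 alternative fits each, Nt5c2 in 10, Krt33a in 6 and the other 10 genes in 0 to 5. Fitted to the 4 arrays of L60 and L84 alone, 0 genes were called by limma, 547 had an unadjusted p under 0.05, and an exact permutation test of 2 arrays against 2 cannot give a two-sided p below 0.333. Among the 12 lower genes 8 were hair genes, with Krt25, Krt27, Tchh and S100a3 from the inner root sheath and cuticle list and Krt31, Krt33a, Krt34 and Krt35 from the shaft. The other 4 were the BMP decoy receptor Bambi, the gap junction gene Gjb2, the smooth muscle gene Tagln and the lipid enzyme gene Lpgat1. An unadjusted p under 0.05 was found for 995 genes (8.03%). Of these, 612 were lower in L84 (4.94%) and 383 higher (3.09%). The arrays of the lines did not overlap in 3649 genes (29.4%), with both L84 arrays below both L60 arrays in 2165 (17.5%) and above them in 1484 (12%). The median difference over all genes was -0.0753.

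**Figure D1:**
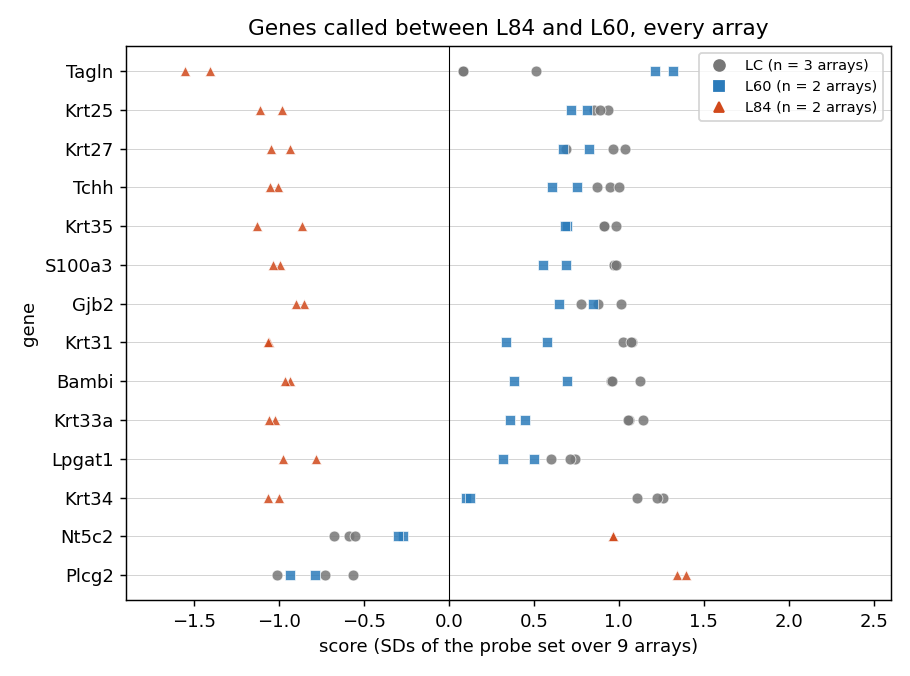
Score of each of the 14 called genes (rows) on every LC, L60 and L84 array (x axis, in SDs of the probe set over 9 arrays). For the 12 lower genes both L84 triangles lie on the negative side, and the L60 squares stand beside the LC circles for Krt25, Krt27 and Gjb2, to the left of them for Krt34 and to the right for Tagln.

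In 4 genes of the inner root sheath and cuticle, the layers that mould and coat the growing hair, L84 fell far below L60. In these 4 genes L60 lay nearer to the control than to L84. Krt25, a keratin of that layer, scored 0.855, 0.937 and 0.888 in LC, 0.811 and 0.716 in L60 and -1.11 and -0.981 in L84. It fell by 1.81 ± 0.0575 (SE, n = 2 arrays a line) from L60 to L84 (limma, adjusted p = 0.00376). Both L60 arrays lay just below the 3 LC arrays, and both L84 arrays far below all of these.

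Krt27, another sheath keratin of the same type, scored 0.687, 1.04 and 0.969 in LC, 0.823 and 0.669 in L60 and -1.05 and -0.939 in L84 and fell by 1.74 ± 0.132 (limma, adjusted p = 0.0482). Trichohyalin (Tchh), the protein that hardens the inner root sheath and the medulla, scored 0.95, 1.0 and 0.872 in LC, 0.754 and 0.606 in L60 and -1.01 and -1.06 in L84 and fell by 1.71 ± 0.0959 (limma, adjusted p = 0.018). S100a3, which binds calcium in cuticle cells, scored 0.971, 0.973 and 0.983 in LC, 0.691 and 0.555 in L60 and -0.995 and -1.03 in L84 and fell by 1.64 ± 0.0456 (limma, adjusted p = 0.00376). In these genes the L60 and L84 arrays did not overlap, and the arrays of a line lay close together. For Tchh and S100a3 both L60 arrays lay below all LC arrays. In whole skin, fewer cells of a type and less RNA per cell cannot be told apart.

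Over the list of the inner root sheath and cuticle, 12 of 15 measured genes scored lower in L84, with a median difference of -1.37. The arrays of both lines did not overlap in 11 genes, all lower in L84, against 17.5% of all genes, and 4 were called. Both L60 arrays lay below all LC arrays in 11 of the 15 genes, against 10.8% of all genes. Both L84 arrays did so in 13, against 14.7% of all genes. Krt71, the type II keratin that pairs with Krt25 and Krt27, differed by -1.79 ± 0.152 and missed the threshold (limma, adjusted p = 0.0573). Padi3, an enzyme that citrullinates trichohyalin, differed by -1.66 ± 0.156 (limma, adjusted p = 0.0753). Differences were -1.43 for Crym, -1.37 for the companion layer keratin Krt75 and -1.29 for the sheath keratin Krt72, none called.

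Shaft keratins, which build the hair fibre itself, were lower in L84 in all 12 measured genes of the list, with a median difference of -1.12. The lines did not overlap in 11 of them, all lower in L84, against 17.5% of all genes, and 4 were called. Krt35, an early shaft keratin of the matrix and cuticle, scored 0.911, 0.986 and 0.91 in LC, 0.694 and 0.682 in L60 and -1.13 and -0.868 in L84, and fell by 1.69 ± 0.0936 (limma, adjusted p = 0.018). Its L60 arrays lay below all LC arrays but closer to LC than to L84, as those of Tchh and S100a3 did.

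Krt31, a cortex keratin, scored 1.08, 1.02 and 1.07 in LC, 0.333 and 0.58 in L60 and -1.06 and -1.06 in L84 and fell by 1.52 ± 0.0949 (limma, adjusted p = 0.0269). Krt33a, also of the cortex, scored 1.14, 1.06 and 1.05 in LC, 0.358 and 0.448 in L60 and -1.03 and -1.06 in L84 and fell by 1.44 ± 0.0638 (limma, adjusted p = 0.00966). Krt34, which comes on higher in the cortex, scored 1.26, 1.22 and 1.11 in LC, 0.102 and 0.125 in L60 and -0.999 and -1.06 in L84 and fell by 1.14 ± 0.0578 (limma, adjusted p = 0.0151). From Krt31 through Krt33a to Krt34 the L60 mean lay further from LC, while all their L84 arrays stood near -1. Krt33a lies in a family of near-identical genes that includes Krt33b, which differed by -1.25 ± 0.164 (limma, adjusted p = 0.169), and whether their probe sets share signal was not tested.

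Krt86, a cortex keratin of the other type, differed by -1.09 ± 0.0983 (limma, adjusted p = 0.0639) and Krt81, its near-identical relative, by -1.22 ± 0.181 (limma, adjusted p = 0.19). The cuticle keratin Krt82 differed by -1.09, Krt83 by -0.93, Krt36 by -0.898 and Krt84, a keratin of the tongue papillae and nail as well as hair, by -0.406. These 6 were not called. In all 12 genes of the list both L60 arrays and both L84 arrays lay below all 3 LC arrays, against 10.8% of all genes for L60 and 14.7% for L84.

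Keratin-associated proteins, the matrix in which hair keratin filaments are embedded, were lower in L84 in nearly every gene. Of 26 measured genes 25 scored lower in L84 and the median difference was -0.521. The lines did not overlap in 12, all lower in L84, against 17.5% of all genes. Of the 26, 0 were called (limma, 7 with an unadjusted p under 0.05, all lower in L84). Both L60 arrays and both L84 arrays were below all LC arrays in 25 of the 26 genes, against 10.8% of all genes for L60 and 14.7% for L84. This median ranged from -0.866 to -0.0676 when 1 array was left out, and was nearest 0, at -0.0676, without L60 2.

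Krtap8-1, a glycine- and tyrosine-rich member, had the widest difference of the family, with scores of 1.1, 1.08 and 1.07 in LC, 0.0981 and 0.663 in L60 and -1.03 and -1.01 in L84 and a difference of -1.4 ± 0.179 (limma, adjusted p = 0.16). Krtap9-3, a cysteine-rich member, scored 1.27, 1.33 and 1.27 in LC, -0.368 and -0.124 in L60 and -0.905 and -0.778 in L84 and differed by -0.595 ± 0.104 (limma, adjusted p = 0.26). In Krtap9-3 both L60 arrays were already near the L84 arrays. In other members the L60 arrays parted from each other.

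Krtap14 scored 1.21, 1.3 and 1.29 in LC, -0.794 and 0.182 in L60 and -0.779 and -0.839 in L84, so that L60 1 stood with L84 and L60 2 between L84 and LC. Krtap6-5, of the glycine- and tyrosine-rich family 6, scored -0.796 and 0.355 in L60 and -0.913 and -0.773 in L84, and Krtap15 scored -0.816 and 0.406 in L60 and -0.811 and -0.859 in L84. L60 1 was below L60 2 in 21 of the 26 genes and lay within 0.1 of the L84 mean in 9. Many of these genes stand in clusters of close copies, and shared probe signal was not tested.

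The place of L60 on the way from the LC mean to the L84 mean was taken for each gene of the hair and pigment lists whose L84 arrays were all below all LC arrays, with 0% at LC and 100% at L84. For a gene read by a single probe set, this ratio is unchanged by a shift or a linear rescaling of the score. For a gene averaged over several probe sets, it depends on how each was standardised. It can also differ between log and linear values, and the scale before standardisation is not given. Both differences in the ratio use the same LC arrays, so the ratio is a description with no test. In the inner root sheath and cuticle list the lowest places were 6.7% for Krt25, 7.92% for Krt71, 7.97% for Krt27, 13.2% for Tchh, 17.8% for S100a3 and 17.8% for Padi3, and the median over 13 genes was 29.8%. The highest of that list were 82.8% for Tgm3, 110% for Mt4 and 115% for Dsc2. Hair matrix regulators had a median of 25.4% over 15 genes and pigment cell genes 28.7% over 12. Over all genes, taken without the condition on the L84 arrays, the median was 31.3%. The medians of the matrix, pigment, and inner root sheath and cuticle lists lay near that value. Shaft keratins had a median of 47.4% over 12 genes. They ran from 12.8% for Krt35 through 28.4% for Krt31, 32.1% for Krt33a, 48.6% for Krt34 and 59.4% for Krt36 to 80.1% for Krt84 and 97.0% for Krt32. The place of Krt32 was 50.1% on L60 1 and 144% on L60 2. Keratin-associated proteins had a median of 73.5% over 25 genes.

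Taken from each L60 array alone, the medians were 20.1% and 25.2% for the inner root sheath and cuticle list, 49.6% and 43.8% for the shaft keratins, and 95.5% and 58.0% for the keratin-associated proteins. The order of the 3 lists was the same on both L60 arrays. Within each list the genes overlapped widely with those of the other lists.

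**Figure D2:**
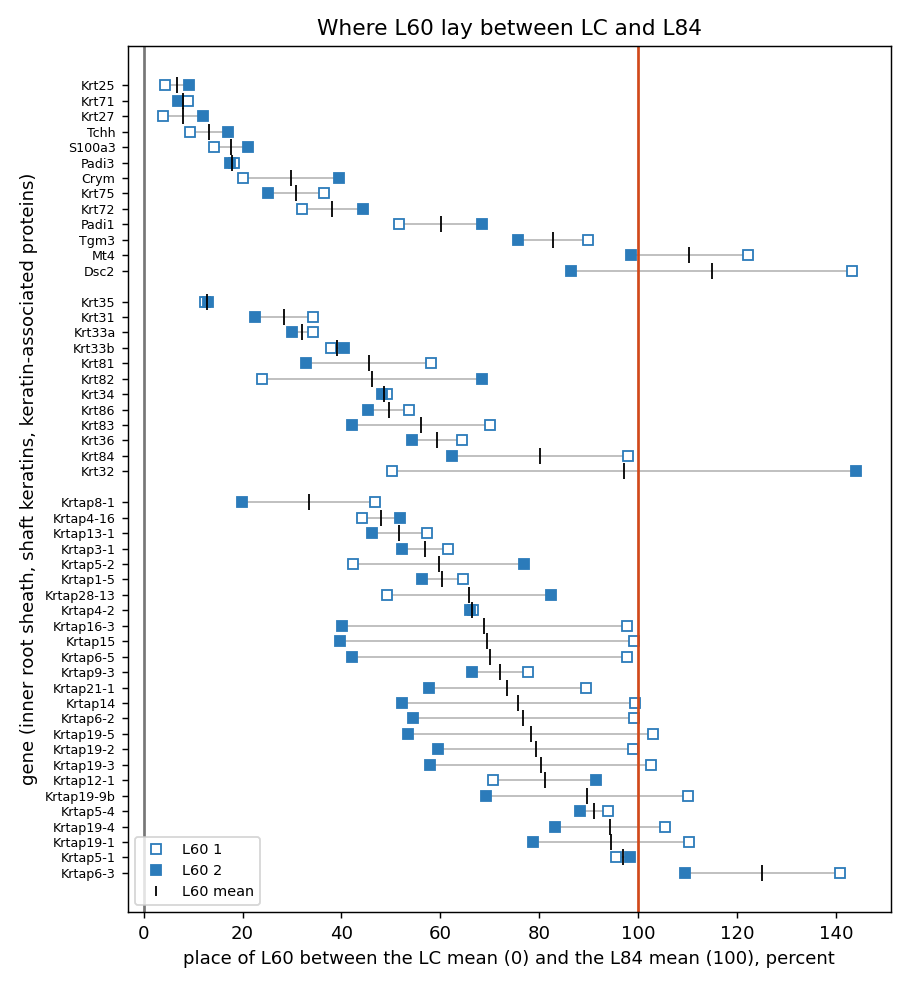
Place of L60 between the LC mean (0%) and the L84 mean (100%) for single genes of the inner root sheath and cuticle list (top), the shaft keratins (middle) and the keratin-associated proteins (bottom), with L60 1 as open squares, L60 2 as filled squares and their mean as a bar. Krt25 (6.70%) lies near LC, Krt34 (48.6%) midway and most keratin-associated proteins nearer L84, where the 2 L60 arrays stand far apart for many genes.

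Transcription factors of the hair matrix were lower in L84 in 19 of 23 measured genes, with a median difference of -0.885 and 0 called (limma, 7 with an unadjusted p under 0.05, all lower in L84). The lines did not overlap in 12 genes lower in L84 and 2 higher, against 17.5% and 12% of all genes. Hoxc13, a direct activator of hair keratin genes, scored 0.718, 1.07 and 1.08 in LC, 0.566 and 0.701 in L60 and -0.743 and -1.12 in L84 and differed by -1.56 ± 0.187 (limma, adjusted p = 0.145). Msx2, a BMP-responsive homeobox gene of the matrix, scored 0.615, 1.07 and 1.15 in LC, 0.53 and 0.738 in L60 and -1.08 and -0.736 in L84 and differed by -1.54 ± 0.223 (limma, adjusted p = 0.187). In both genes the L60 arrays stood near the lowest LC array and the L84 arrays far below.

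Dlx2 scored 0.0884 and 0.453 in L60 and -1.04 and -0.907 in L84 and Dlx3, which acts with Hoxc13 in shaft formation, scored 0.162 and 0.703 in L60 and -1.09 and -0.67 in L84, with differences of -1.24 ± 0.19 and -1.31 ± 0.523 (limma, adjusted p = 0.2 and 0.629). Lef1, the Wnt effector of the matrix and dermal papilla, differed by -1.61 ± 0.447 (limma, adjusted p = 0.461), Dlx4 by -2.02 ± 0.628 and Msx1 by -1.73 ± 0.56. Foxn1, the nude gene, whose product turns on hair keratins, scored 1.26, 0.737 and 1.72 in LC, -0.401 and -0.279 in L60 and -0.946 and -1.09 in L84 and differed by -0.679 ± 0.336 (limma, adjusted p = 0.716). Unlike Hoxc13 and Msx2, Foxn1 was already well below LC on both L60 arrays. Nfatc1, a factor of the resting bulge that BMP signals sustain, and hairless (Hr) were the 2 non-overlapping genes higher in L84, by 1.27 and 0.939.

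BMP response genes held 1 called gene. Bambi, a receptor-like protein without kinase activity that dampens BMP and TGF-beta signals and is itself induced by BMP, scored 0.956, 1.13 and 0.958 in LC, 0.697 and 0.384 in L60 and -0.936 and -0.966 in L84. It fell by 1.49 ± 0.118 (limma, adjusted p = 0.0482). The L60 arrays lay between LC and L84 without touching either.

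Of 20 measured BMP response genes, 15 were lower in L84, with a median difference of -0.736 and 11 non-overlapping genes lower in L84 against 1 higher. The list shares 8 genes with the hair matrix regulators, among them Msx2, Hoxc13 and Foxn1. In the 12 genes that it does not share, 7 were lower and the median was -0.293. Among these 12 the lines did not overlap in 4 lower genes and 1 higher, against 17.5% and 12% of all genes.

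The Id genes, direct targets of BMP and SMAD signalling, differed among themselves. Id3 scored 0.204, 0.606 and 0.814 in LC, 0.926 and 1.39 in L60 and -1.07 and -0.891 in L84 and differed by -2.14 ± 0.333 (limma, adjusted p = 0.206). Id1 scored -0.165 and 1.16 in L60 and 0.144 and -0.113 in L84 and Id2 -0.631 and -0.0334 in L60 and 0.984 and -0.638 in L84, with differences of -0.482 ± 0.729 and 0.505 ± 0.74, both within their spread, and Id4 differed by -1.35 ± 0.481. For Id3, read by 1 probe set, L60 stood above LC and L84 below. The arrays of both lines overlapped for Id1 and for Id2 as the mean of its 3 probe sets. By themselves the probe sets of Id2 differed by 1.59 ± 0.25, -0.348 ± 1.14 and 0.275 ± 1.07. On the first, both L84 arrays lay above both L60 arrays, and on the others the lines overlapped.

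Smad6, an inhibitory SMAD that BMP induces, scored 0.901, 1.16 and 1.59 in LC, -0.031 and -0.0134 in L60 and -0.76 and -0.773 in L84 and differed by -0.744 ± 0.222 (limma, adjusted p = 0.477). Smad7, the inhibitory SMAD of TGF-beta signals, differed by -0.728 ± 0.605. Both L60 arrays of Smad6 were already below the LC arrays. Hey1, also a Notch target, differed the other way, by 1.92 ± 0.905 (limma, adjusted p = 0.702).

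Among BMP ligands, Bmp4, which the dermal papilla and matrix make, scored 0.187, 0.884 and 0.858 in LC, 0.841 and 0.71 in L60 and -2.03 and -0.959 in L84 and differed by -2.27 ± 0.442, the widest of the 24 ligands, receptors and antagonists measured (limma, adjusted p = 0.308, 95% interval -3.40 to -1.13 unadjusted). L60 lay among the LC arrays and L84 below all of them. Bmp8a differed by -1.77 ± 0.607. The interval for Bmp2 ran from -1.17 to 3.96 and that for Bmp7 from -2.70 to 2.50, so that neither direction could be told for these ligands.

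The receptor gene Bmpr1a scored 0.36, 0.68 and 0.815 in LC, 0.756 and -0.0108 in L60 and -0.334 and -0.999 in L84 and differed by -1.04 ± 0.357 (limma, adjusted p = 0.556), while the activin receptor Acvr2a differed by 0.759. Of the antagonists, noggin (Nog) differed by -0.104 ± 0.753 and follistatin (Fst) by 1.52 ± 0.797. Over this list 16 of 24 genes were lower in L84 and 0 were called (limma, 3 with an unadjusted p under 0.05). The lines did not overlap in 4 lower genes and 2 higher, against 17.5% and 12% of all genes, and the median of -0.299 turned to 0.0137 without L60 2.

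**Figure D3:**
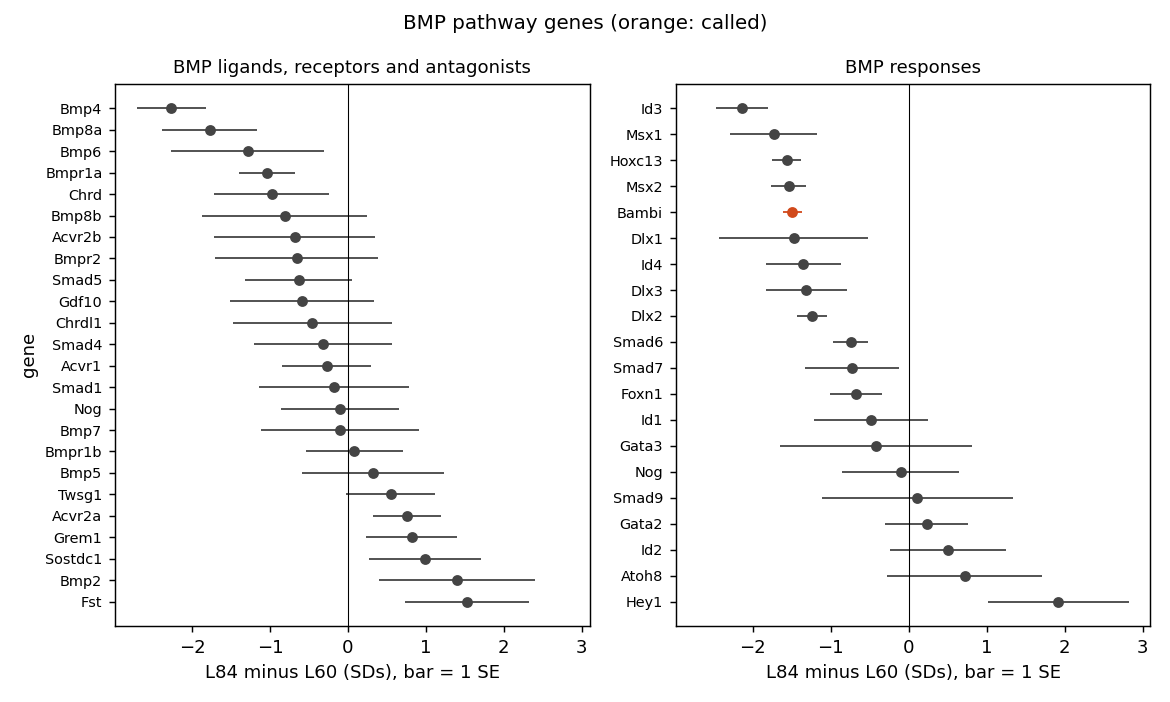
Difference L84 minus L60 (x axis, in SDs; bar = 1 SE from the limma fit) for each measured BMP ligand, receptor and antagonist (left) and each BMP response gene (right). Bambi, in orange, is the 1 called gene, Bmp4 (-2.27) and Id3 (-2.14) lie further to the left with wider bars, and Hey1 (1.92) lies furthest to the right.

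Akt1 scored -0.457, -0.0573 and 0.0461 in LC, -0.54 and 0.417 in L60 and 1.31 and 0.827 in L84 as the mean of its 2 probe sets and differed by 1.13 ± 0.651 between the lines (limma, adjusted p = 0.766, 95% interval -0.544 to 2.80 unadjusted). In this mean both L84 arrays were above both L60 arrays, which overlapped the LC arrays. By themselves the 2 probe sets disagreed. One differed by 1.73 ± 0.363 (limma, unadjusted p = 0.005), with scores of -0.147 and -0.0326 in L60 and 1.81 and 1.47 in L84. The other differed by 0.53 ± 1.09, and the lines overlapped on it (-0.933 and 0.87 in L60, 0.81 and 0.185 in L84). Whether these probe sets read the transgene was not tested. Akt2 differed by -0.203 ± 0.678, a sign that turned under 5 alternatives.

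Over the Akt and PI3K list 11 of 24 genes were higher in L84 and the median was -0.0272, near that of all genes, and it turned above 0 under 9 alternatives. The lines did not overlap in 6 of the 24 (25.0%, against 29.4% of all genes). By direction, 5 of the 24 were non-overlapping and higher in L84 and 1 lower, against 12% and 17.5% of all genes. Pik3r1, the main regulatory subunit of PI3K, scored -0.462 and -0.503 in L60 and 1.94 and 1.04 in L84 and differed by 1.97 ± 0.478 (limma, adjusted p = 0.413), and Irs1, the adaptor that links the insulin and IGF receptors to PI3K, by 1.28 ± 0.638. Pik3r1 and Irs1 were among these 6. The translation repressor Eif4ebp1 differed by -0.86 ± 0.402. The FOXO factors Foxo1 and Foxo3 differed by -0.596 ± 0.56 and -0.362 ± 0.333, and 0 of 22 FOXO factors and targets were called (limma, 4 with an unadjusted p under 0.05). IGF genes went both ways, with 7 of 13 lower in L84 and a median of -0.261. They held 3 non-overlapping genes in each direction, against 17.5% of all genes lower and 12% higher. The binding protein gene Igfbp7 differed by -1.96 ± 0.269 and Igfbp2 by -1.87 ± 0.924, against 1.42 ± 0.579 for Igfbp5 and 1.05 ± 0.296 for Igfbp3, with 0 of 13 called (limma, 2 with an unadjusted p under 0.05).

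Genes of DNA replication and of mitosis were higher in L60 than in L84 in nearly every case, and the mean over each list stood above the control in L60. Of 38 replication genes 35 were lower in L84, with a median difference of -1.21 and 23 non-overlapping genes, all lower. Of 36 mitosis genes 34 were lower, with a median of -1.22, 26 non-overlapping genes lower and 1 higher. Over all genes 17.5% were non-overlapping and lower in L84 and 12% non-overlapping and higher. None of the 74 was called (limma, 14 and 15 with an unadjusted p under 0.05, all lower in L84). The lists share 0 genes.

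The mean score over the replication genes was 0.718 and 0.977 on the L60 arrays and -0.431 and -0.00984 on the L84 arrays, against 0.0392, 0.229 and 0.265 in LC. Over the mitosis genes it was 0.709 and 0.766 in L60, -0.96 and 0.162 in L84, and 0.507, 0.387 and 0.343 in LC. Both L60 arrays exceeded all LC arrays in both lists, and L84 1 was the lowest of the LC, L60 and L84 arrays. Both L60 arrays lay above all LC arrays in 19 of 38 replication genes and 11 of 36 mitosis genes, against 14.4% of all genes. Both L84 arrays lay below all LC arrays in 10 of the 38 and 17 of the 36, against 14.7% of all genes.

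Rfc4, a subunit of the clamp loader, scored 0.462, 0.659 and -0.0094 in LC, 1.35 and 1.19 in L60 and -0.678 and -0.626 in L84 and differed by -1.92 ± 0.225 (limma, adjusted p = 0.145). Pola1, the catalytic subunit of the priming polymerase, scored -0.26, -0.127 and -0.468 in LC, 1.4 and 1.75 in L60 and -0.127 and 0.103 in L84 and differed by -1.59 ± 0.19 (limma, adjusted p = 0.145). Cenpa, the histone of the centromere, scored 0.578, 0.607 and 0.743 in LC, 1.16 and 0.888 in L60 and -0.989 and -0.338 in L84 and differed by -1.69 ± 0.234 (limma, adjusted p = 0.175). For Pola1 the L84 arrays were level with LC or above it and L60 alone stood high, while for Cenpa L84 was below LC as well.

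Gins1, of the replicative helicase, differed by -2.05 ± 0.6, the replicative polymerase gene Pole by -1.96 ± 0.505, the centrosome kinase gene Nek2 by -1.84 ± 0.772, the kinesin gene Kif20a by -1.72 ± 0.463 and the mitotic kinase gene Plk1 by -1.67 ± 0.485. Ttk, a spindle checkpoint kinase gene, was the non-overlapping gene that was higher in L84, by 1.41 ± 0.803. The mitosis difference was wider between L84 1 and L60 1 (median -1.84) than between L84 2 and L60 2 (-0.713). Without L84 1, the array with the wider scores, the median was -0.684.

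Cytosolic ribosomal protein genes went the same way between the lines, with 38 of 41 lower in L84 and a median of -0.971. Of the 41, 0 were called (limma, 9 with an unadjusted p under 0.05, all lower in L84). Rpl7 scored 0.981 and 0.592 in L60 and -0.962 and -1.32 in L84. The lines did not overlap in 26 genes lower in L84 and in 2 higher (Rps6 and Rps9), against 17.5% and 12% of all genes. Both L60 arrays lay above all LC arrays in 5 of the 41, against 14.4% of all genes. Both L84 arrays lay below all LC arrays in 20, against 14.7%. Mitochondrial ribosomal protein genes had a median of -0.177.

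**Figure D4:**
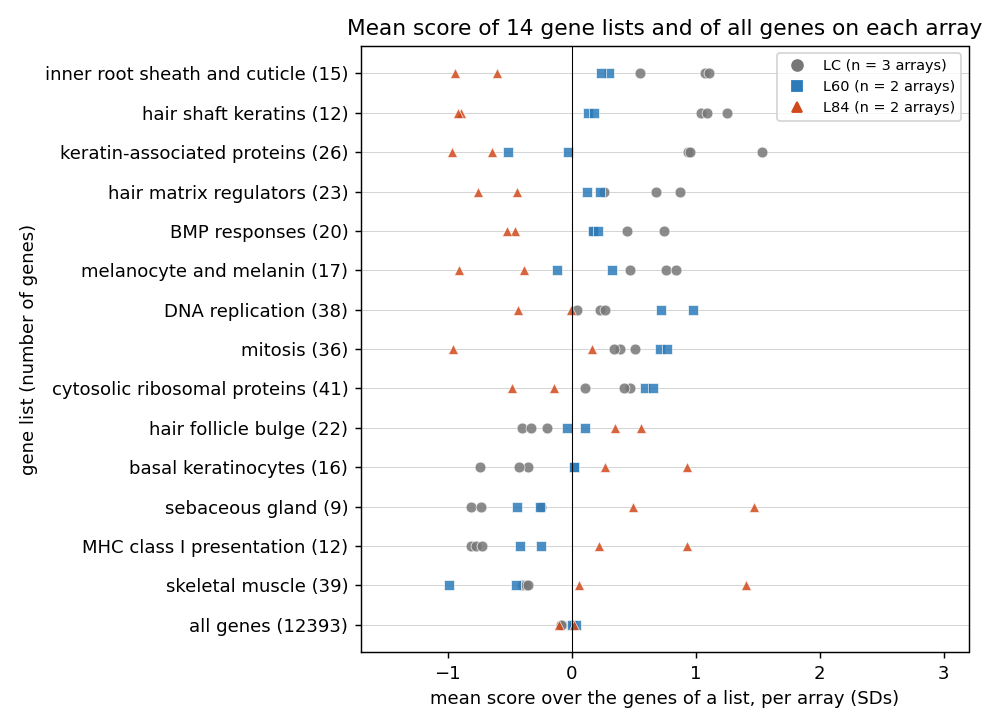
Mean score over the genes of 14 lists and over all genes (rows, number of genes in brackets) on each LC, L60 and L84 array (x axis, in SDs). L60 lies between LC and L84 for the hair lists, above LC for DNA replication and mitosis, and L84 1 is the outer array of L84 for most lists, while all genes stay near 0.

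Pigment cell genes were lower in L84 in 14 of 17 measured genes, with a median of -1.04. The lines did not overlap in 12, all lower, against 17.5% of all genes. Tyrp1, an enzyme of melanin synthesis, scored 0.74, 1.01 and 1.02 in LC, 0.55 and 0.8 in L60 and -1.03 and -0.951 in L84 and differed by -1.66 ± 0.135, just short of the threshold (limma, adjusted p = 0.0512). Dct, another enzyme of that path, scored 0.707, 0.932 and 0.976 in LC, 0.468 and 0.821 in L60 and -0.484 and -0.48 in L84 and differed by -1.13 ± 0.145 (limma, adjusted p = 0.162). In both genes the L60 arrays touched or neighboured the LC arrays and the L84 arrays stood apart. The melanosome genes Pmel, Tyr and Oca2 differed by -1.04, -1.29 and -0.948, and Trpm1 by -1.48, none called.

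Lists of the follicle's growth signals held genes in both directions, with wide spreads and 0 called. Shh, the ligand that drives matrix growth, scored -0.131, 0.278 and 0.132 in LC, 1.06 and 0.67 in L60 and -1.14 and -0.54 in L84 and differed by -1.71 ± 1.0 (limma, adjusted p = 0.77). Wnt5a, a Wnt of the follicle mesenchyme and matrix, differed by -1.68 ± 0.382 and Vcan, a proteoglycan of the active dermal papilla, by -2.19 ± 0.413 (limma, adjusted p = 0.291). The dermal papilla list had a median of -0.901 over 17 genes with 5 non-overlapping genes lower and 2 higher (Crabp1, by 2.19 ± 0.735, and Hey1), against 17.5% and 12% of all genes. Hedgehog genes had a median of -0.885 over 12, with 7 non-overlapping genes lower and 3 higher, against 17.5% and 12% of all genes. Wnt genes had a median of -0.4 over 40, with 12 higher and 28 lower. The ectodysplasin list went the other way, with 4 of 5 genes higher and a median of 0.523, and its receptor gene Edar differed by 0.774 ± 1.02.

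Genes of the follicle bulge, where the stem cells rest, held some wide differences toward L84, though none was called. Fgf18, a ligand that keeps follicles at rest, scored -0.483, -1.03 and -0.765 in LC, -0.27 and -0.99 in L60 and 1.81 and 1.29 in L84 and differed by 2.18 ± 0.343 (limma, adjusted p = 0.212). Gas1, a membrane protein of the hedgehog pathway and a bulge marker, scored -0.496, -0.869 and -0.741 in LC, -0.449 and -0.852 in L60 and 1.34 and 1.23 in L84 and differed by 1.94 ± 0.195 (limma, adjusted p = 0.091). For both, L60 stood within the range of LC or beside it and both L84 arrays stood far above. Over 22 bulge genes 14 were higher in L84 and the median was 0.526. The lines did not overlap in 9 higher and 4 lower, against 12% and 17.5% of all genes.

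Dkk3 differed by 1.67 ± 0.434 and Krt15, a keratin of basal and bulge cells, by 1.31 ± 0.196 (limma, adjusted p = 0.19). Krt15 scored -0.997, -1.27 and -1.18 in LC, -0.407 and 0.0426 in L60 and 1.27 and 0.991 in L84, with L60 between LC and L84. In the other direction the Wnt inhibitor Wif1 differed by -1.98 ± 0.772 and Tcf7l1 by -1.31 ± 0.688.

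Basal keratinocyte genes were higher in L84 in 13 of 16 measured genes, 2 of which the bulge list also holds, with a median of 0.793. The lines did not overlap in 9 higher and 2 lower, against 12% and 17.5% of all genes. Krt5, the basal keratin, scored -1.64, -0.88 and -1.13 in LC, -0.0532 and 0.169 in L60 and 1.1 and 0.892 in L84 and differed by 0.937 ± 0.267 (limma, adjusted p = 0.471), and Krt14, its partner, differed by 0.373 ± 0.568. Genes of the basement membrane contact, Col17a1, Lama3, Lamb3 and Col7a1, differed by 1.29, 1.2, 1.11 and 1.33. For Krt5 both L60 arrays lay above LC and below L84. The integrin Itga3 and P-cadherin (Cdh3), which the matrix also makes, differed by -1.43 and -1.18.

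Of the suprabasal keratins Krt1 and Krt10 differed by 0.845 ± 0.355 and 0.489 ± 0.304, and Krt2 by 2.09 ± 0.626 (limma, adjusted p = 0.478), with scores of -0.654 and -0.493 in L60 and 2.46 and 0.573 in L84 that rest mostly on L84 1. The list of epidermal differentiation had a median of 0.584 over 33 genes, which turned to -0.361 without L60 2.

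Gjb2, which encodes the gap junction protein connexin 26 of the follicle and of activated epidermis, fell. It scored 0.775, 1.01 and 0.879 in LC, 0.649 and 0.849 in L60 and -0.855 and -0.9 in L84 and the fall was 1.63 ± 0.112 (limma, adjusted p = 0.0386). Its L60 arrays overlapped the LC arrays. It was the 1 called gene of the 21 stress keratins and alarmins measured, whose median was 0.095.

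Sebaceous gland genes were higher in L84 in all 9 measured genes, with a median of 1.56. The lines did not overlap in 6, against 12% of all genes non-overlapping and higher. Of the 9, 0 were called (limma, 4 with an unadjusted p under 0.05, all higher in L84). Scd3, a fatty acid desaturase of the gland, scored -0.83, -0.956 and -0.814 in LC, -0.213 and -0.658 in L60 and 2.05 and 0.79 in L84 and differed by 1.86 ± 0.432 (limma, adjusted p = 0.399). Scd1, of the same family of close copies, scored -0.367, -0.341 and -0.397 in LC, -0.123 and -0.797 in L60 and 2.04 and 0.517 in L84, and Fa2h, which hydroxylates fatty acids, differed by 1.9 ± 0.633. L84 1 was the highest LC, L60 or L84 array in each of these 3 genes and L84 2 the next. Cholesterol and fatty acid synthesis genes were higher in 21 of 24, with a median of 0.719 that was 1.38 between L84 1 and L60 1 and 0.174 between L84 2 and L60 2.

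Genes of MHC class I presentation, by which cells show peptides to CD8 T cells, were higher in L84 in 11 of 12, with a median of 1.16. The lines did not overlap in 9, all higher in L84, against 12% of all genes. Of the 12, 0 were called (limma, 6 with an unadjusted p under 0.05). H2-K1, a class I heavy chain, scored -1.08, -0.78 and -0.756 in LC, -0.593 and -0.66 in L60 and 0.672 and 0.55 in L84 and differed by 1.24 ± 0.133 (limma, adjusted p = 0.112). B2m, the light chain, scored -1.25, -0.847 and -1.01 in LC, -0.508 and -0.36 in L60 and 0.691 and 0.993 in L84 and differed by 1.28 ± 0.182 (limma, adjusted p = 0.182), and the near-identical heavy chain gene H2-D1 by 1.09 ± 0.244. Both L84 arrays of these 3 genes lay above both L60 arrays and above LC. The peptide transporter Tap2 differed by 1.71 ± 0.575 and the immunoproteasome subunits Psmb10 and Psmb8 by 1.32 and 1.31.

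Lists of immune cells and their signals had medians on both sides of 0. The median was 0.549 over 28 interferon response genes, 0.261 over 26 genes of T and B lymphocytes and -0.173 over 28 of macrophages and dendritic cells. It was 0.51 over 8 of MHC class II, 0.539 over 12 of mast cells and -0.213 over 30 chemokines. In that order, 9, 6, 2, 1, 5 and 3 genes were non-overlapping and higher in L84, against 12% of all genes. Lower and non-overlapping were 0, 2, 1, 0, 0 and 2, against 17.5%. Both L84 arrays lay above all LC arrays in 13, 6, 3, 6, 5 and 5, against 13.8% of all genes. None of the genes in these lists was called (limma, 3, 0, 2, 1, 2 and 2 with an unadjusted p under 0.05, against 8.03% of all genes). The lymphocyte median turned to -0.272 without L84 2, and the macrophage and chemokine medians turned sign without L60 2 and without L84 1.

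Plcg2, a phospholipase of immune receptor signalling, rose in L84. It scored -0.729, -1.01 and -0.563 in LC, -0.938 and -0.791 in L60 and 1.34 and 1.39 in L84 and the rise was 2.23 ± 0.174 (limma, adjusted p = 0.0482). Nt5c2, a nucleotidase that removes phosphate from purine nucleotides, scored -0.586, -0.556 and -0.679 in LC, -0.27 and -0.3 in L60 and 0.965 and 0.968 in L84 as the mean of 3 probe sets and rose by 1.25 ± 0.0439 (limma, adjusted p = 0.00413). L60 overlapped LC for Plcg2 and stood above LC for Nt5c2. The small SE of Nt5c2 belongs to the mean of its probe sets alone. Each probe set by itself had an SE of 0.757 to 0.834 and an unadjusted p of 0.112 to 0.241 (limma), and the L84 arrays parted in opposite directions on them (2.27 and -0.0365 on one, 0.337 and 2.26 on another). With 1 probe set per gene Nt5c2 was not called.

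The 10 non-overlapping genes of smallest p that follow were higher in L84 without passing the threshold (limma, adjusted p = 0.0608 to 0.169). They were the retinoid receptor Rxrg (2.19 ± 0.193), Itm2b (1.06 ± 0.101), Gas1, H2-K1, Cacul1 (1.24 ± 0.133), the muscle caveolar gene Cavin4 (2.69 ± 0.296), the glucose-responsive factor Mlxipl (2.69 ± 0.31), the mitochondrial transport adaptor Trak1 (1.04 ± 0.125), cysteine dioxygenase Cdo1 (2.38 ± 0.307) and the reductase Akr1b8 (2.06 ± 0.271). The small SEs of Itm2b, Cacul1 and Trak1 belong to the means of their probe sets. By themselves the 2 probe sets of Trak1 differed by 0.195 ± 0.966 and 1.89 ± 0.915. The 6 of Cacul1 ran from -0.06 to 2.33 with SEs of 0.571 to 1.04. The SEs of the 3 of Itm2b were 0.369 to 0.826. Lpgat1, an acyltransferase of phospholipids, was lower, scored 0.743, 0.71 and 0.604 in LC, 0.317 and 0.501 in L60 and -0.78 and -0.979 in L84 over 4 probe sets and fell by 1.29 ± 0.0988 (limma, adjusted p = 0.0482). Its 4 probe sets by themselves had SEs of 0.687 to 0.934 and unadjusted p of 0.0765 to 0.308 (limma), so that its small SE, too, belongs to the mean alone. Lpgat1 was called under none of the 18 alternative settings.

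Tagln, which encodes the actin-binding protein transgelin of smooth muscle, had the widest difference of the called genes. It scored 0.515, 0.0849 and 0.0849 in LC, 1.21 and 1.32 in L60 and -1.55 and -1.41 in L84 and fell by 2.74 ± 0.215 from L60 to L84 (limma, adjusted p = 0.0482). L60 stood above all LC arrays and L84 below all of them, a layout that no other called gene had. The scores of LC 2 and LC 3 were equal.

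Other smooth muscle genes were lower in L84 in part. Actg2 scored 0.742 and 0.207 in L60 and -2.05 and -1.05 in L84, Smtn 0.128 and 0.941 in L60 and -1.42 and -1.2 in L84 and Acta2 0.21 and 0.838 in L60 and -1.72 and -0.601 in L84, with differences of -2.03 ± 0.453, -1.84 ± 0.489 and -1.68 ± 0.407, none called. Over 10 genes the median was -0.723, with 6 non-overlapping genes lower and 0 higher, against 17.5% and 12% of all genes.

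Skeletal muscle genes had the other direction, with 38 of 39 higher in L84 and a median of 1.45. The lines did not overlap in 27, all higher in L84, against 12% of all genes. Of the 39, 0 were called (limma, 16 with an unadjusted p under 0.05, all higher in L84). The mean over the list was -0.404, -0.372 and -0.351 in LC, -0.991 and -0.446 in L60 and 1.41 and 0.0593 in L84. L60 1 was the lowest array and L84 1 the highest. The median was 2.65 between L84 1 and L60 1 and 0.58 between L84 2 and L60 2. Casq1, the calcium store protein of fast muscle, differed by 2.3 ± 0.703 and the light chain gene Mylpf by 2.28 ± 0.544. How much underlying muscle each skin sample held was not measured apart from these genes, and its part in the other lists was not tested.

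Adipocyte genes had a median of -0.319 over 18, collagens and dermal matrix -0.698 over 35, endothelium -0.292 over 22 and oxidative phosphorylation 0.112 over 76. The collagen median was -1.35 between L84 1 and L60 1 and 0.119 between L84 2 and L60 2, so its direction rests on the pair of arrays, and it was 0.558 without L84 1. Periostin (Postn), a matrix protein also made by bulge cells, was higher in L84 by 1.24 ± 0.362.

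The pairs of arrays show which differences recur. Between L84 1 and L60 1 and between L84 2 and L60 2 the median differences were -1.08 and -1.12 for shaft keratins, and -1.53 and -1.37 for the inner root sheath and cuticle. With 1 array left out, these medians ranged from -1.2 to -1.04 and from -1.53 to -1.23. The labels do not say that equal numbers pair the pools, and the pairing serves only to show each array once.

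**Figure D5:**
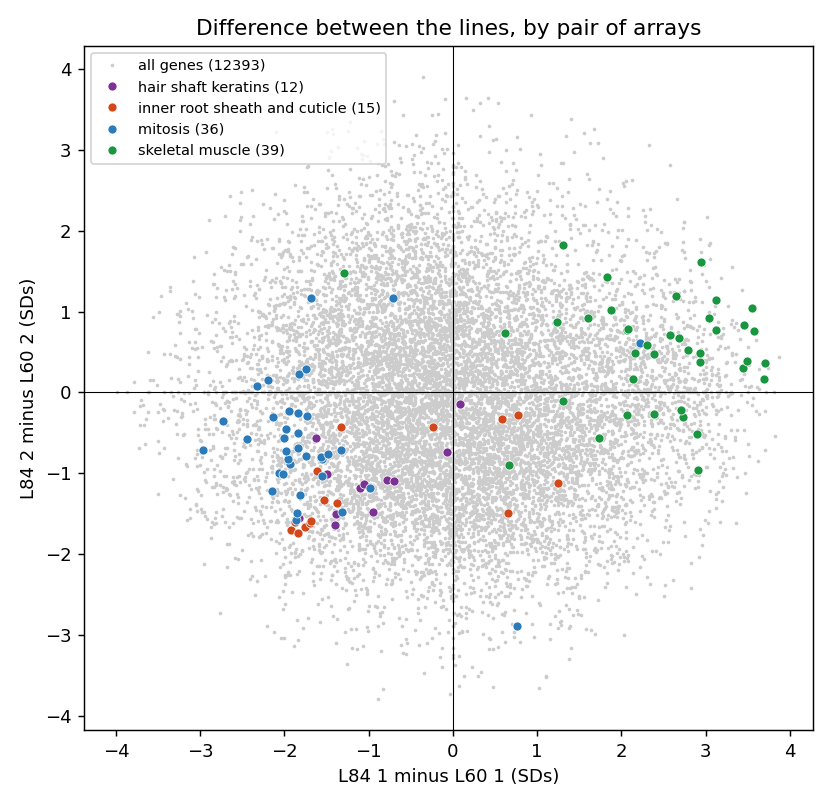
Difference L84 1 minus L60 1 (x axis) against L84 2 minus L60 2 (y axis), both in SDs, for all 12393 genes (grey) and 4 lists. Most shaft keratins and inner root sheath genes lie in the lower left at like distances on both axes, most mitosis genes lie further left than low, and most skeletal muscle genes lie far to the right.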

How the data were processed

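Whole-skin RNA pools were measured on Affymetrix arrays, and RMA is named, without a version, in the submitters' processing notes. The deposited values are a score per probe set that was standardised over the 9 arrays (row means within 1.86e-07 of 0, row SDs within 7.54e-08 of 1). The scale before standardisation is not given in the sources used here. Such scores hold no level and no background signal, so no filter on dim probes was possible, and the number of arrays limits the precision.

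Of 22690 probe sets, 64 were controls, 20380 named 1 gene, 691 several and 1555 none. The mean over the probe sets naming a gene alone gave 12393 genes, 4956 of them from more than 1 probe set, and 12377 symbols matched the GRCm38.p6 gene table. Such averages can vary by less than 1 SD. In 44.4% of probe sets a pair of arrays held equal scores (within 1e-06), as did both L60 arrays in 251 genes, both L84 arrays in 109 and neither pair in a called gene.

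Group means of all 9 arrays (LC, L60, L84, LA) were fitted in R 4.3.3 by limma 3.58.1 (5 residual degrees of freedom), without variance moderation because the scores are already standardised. For L84 minus L60, a gene counted as called below 0.05 after Benjamini-Hochberg adjustment over all genes. The 44 gene lists, the members and the alternatives were chosen with earlier results of these data known. They were described by counts and medians, with no test of a list. Genes named were up to 12 called genes a direction (the rest filled by smallest p), up to 4 called members of each list or else the widest non-overlapping members, and a fixed set of Akt, BMP, keratin and hair genes. Other members of the hair, replication, muscle, MHC, pigment, basal, stress and adipocyte lists were named after their values were seen. Alternatives left out each array, used replicate number as a block, fewer arrays, moderated variance, array medians set to 0 (and SDs to 1), 1 probe set per gene, and every probe set on its own.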

Additional observations from a re-analysis of the deposited data

How the results depend on the processing

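The precision rests on 2 pools a line. Of 3816 gene results under 18 alternatives, 3586 kept direction and side of the threshold, 188 lost the call, 9 gained one and 33 turned direction; the causes were not tested. Leaving out 1 array gave 3 to 15 called genes (2 to 7 lower and 1 to 9 higher), 766 to 2018 with an unadjusted p under 0.05 and 3649 to 9305 not overlapping; where this left 1 array of a line, that array was assumed to vary like the other groups. Over these fits the differences turned sign for Akt2 (-0.487 to 0.081), Bmp2 (-0.0607 to 2.86), Bmp7 (-0.541 to 0.343), Dsc2 (-0.225 to 0.721), Edar (-0.537 to 2.09), Foxo1 (-1.30 to 0.112), Foxo3 (-0.735 to 0.0102), Id1 (-1.14 to 0.180), Id2 (-0.306 to 1.32), Mt4 (-0.187 to 0.440), Nog (-0.498 to 0.290) and Xist (-1.56 to 0.821).

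Equal replicate numbers were not taken to pair the pools, since no label says so, only 2 numbers are shared by the lines and the deviations of L60 and L84 correlated at 0.115. With replicate number as a block (the replicate block) 0 genes were called, 0 lower and 0 higher, and the smallest adjusted p was 0.0516.

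Calls were 0 in all, 0 lower and 0 higher by the L60 and L84 arrays alone (547 with an unadjusted p under 0.05), by moderated variance, and with array medians set to 0 and SDs to 1, where Akt2 turned to 0.0916, Bmp7 to 0.0238 and Nog to 0.154. They were 7 (6 lower, 1 higher) by the LC, L60 and L84 arrays and 7 (5 lower, 2 higher) with medians set to 0. With 1 probe set per gene 1 gene was higher, and Acvr2a turned to -0.00198, Akt2 to 0.114, Bmp7 to 0.312 and Id2 to -0.348. With every probe set on its own 1 was higher and 5641 did not overlap, and no value of a single gene exists. Without the 3 arrays high in 18S, which leaves 1 array a line, 1 gene was called (0 lower, 1 higher), 12150 did not overlap, and Akt2 turned to 0.116, Dsc2 to -0.277, Id2 to -0.604, Mt4 to -0.332 and Nog to 0.186. Without the 2 arrays of widest scores (L84 1, LA 2) 39 were called (18 lower, 21 higher), 2014 had an unadjusted p under 0.05 and 8974 did not overlap, with Akt2 at 0.081, Bmp2 at -0.0607, Id2 at -0.306, Mt4 at -0.187, Nog at 0.290 and Xist at 0.611.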

Other observations

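Genes of the amino acid response and of endoplasmic reticulum stress parted in L84. Of 35 measured genes 24 were lower and 11 higher in L84 than in L60, with a median difference of -0.499, and 0 were called (limma, 6 with an unadjusted p under 0.05). The arrays of the lines did not overlap in 12 lower genes and 3 higher, against 17.5% and 12% of all genes. Trib3, a pseudokinase gene that this stress response induces and whose product binds Akt, scored -0.243, -0.255 and -0.36 in LC, -0.982 and -0.599 in L60 and 1.24 and 0.827 in L84 and differed by 1.82 ± 0.294 (limma, adjusted p = 0.223). L60 was below LC and L84 above it as the mean of 2 probe sets, but not on each. On one of them L84 2 (-0.433) and both L60 arrays (-0.412) lay within the LC range, and on the other L84 1 (-0.0748) equalled 2 LC arrays. The stress-induced gene Nupr1 differed by 1.01 ± 0.483. In the other direction Atf4, the transcription factor of the response, differed by -0.932 ± 0.292, the chaperone gene Hspa5 by -1.27 ± 0.404 and cystathionine beta-synthase (Cbs) by -1.54 ± 0.412. The list's median was -0.106 without L84 2.

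Adipocyte genes had 7 non-overlapping genes lower in L84 and 1 higher among 18 measured, against 17.5% and 12% of all genes. Of the 18, 0 were called (limma, 4 with an unadjusted p under 0.05). Pck1, which feeds glycerol synthesis in fat cells, scored 0.585 and 0.224 in L60 and -1.36 and -1.18 in L84 and differed by -1.67 ± 0.32 (limma, adjusted p = 0.295). The fatty acid binding protein gene Fabp4 differed by -1.62 ± 0.568 and lipoprotein lipase (Lpl) by -1.28 ± 0.482. Dgat2, an enzyme of triglyceride synthesis that sebaceous glands also make, was the higher gene, with scores of -1.64 and -1.0 in L60 and 0.751 and -0.294 in L84.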
